A study of Populus trichocarpa with 28 samples.

Results

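Condensed tannins, also called proanthocyanidins, are polymers of flavan-3-ols that poplars store in leaves, bark and roots and that are best known for binding protein and deterring feeding animals. They are built by a late branch of flavonoid synthesis, in which dihydroflavonol reductase (DFR) makes leucoanthocyanidins, leucoanthocyanidin reductase (LAR) turns these into catechin, and anthocyanidin synthase (ANS) followed by anthocyanidin reductase (ANR) turns them into epicatechin. MYB134 and MYB115 are R2R3 MYB transcription factors that are known in poplar to activate the genes of this branch. The 10 genes described here were chosen by name, out of 41335 genes counted: the regulators MYB134 (Potri.006G221800) and MYB115 (Potri.002G173900), DFR1 (Potri.002G033600) and DFR2 (Potri.005G229500), ANS1 (Potri.003G119100) and ANS2 (Potri.001G113100), ANR1 (Potri.004G030700), and LAR1 (Potri.008G116500), LAR2 (Potri.010G129800) and LAR3 (Potri.015G050200).

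The samples were strand-specific RNA-seq libraries of Populus trichocarpa, black cottonwood, raised from rooted cuttings of stems in a greenhouse at 20 to 35 C. Every plant was watered to field capacity, the water content a drained soil holds, for 2 months; control plants stayed there, and drought plants had water withheld and were kept at 40% of it. After 24 hours, the short-term experiment gave total RNA libraries of apex and of mature leaves, and after 25 days, the long-term experiment gave mRNA libraries of apex, young leaves, mature leaves and root, and a second set of root libraries from total RNA depleted of ribosomal RNA. The resulting 14 groups held 2 libraries each, 28 in all, and are named here by the number in their titles: short-term control 19 and 49 and drought 35 and 69, long-term control 63 and 70 and drought 64 and 68. No genotype or clone is given for any group, and the labels do not say whether a group's libraries are from separate plants, so the p-values measure the spread between these libraries only.

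The 28 libraries held between 20249489 and 67062224 sense reads on genes, the fewest in the long-term leaf and apex libraries and the most in roots. Levels below are CPM, counts scaled to a common library size, with a scaling computed over all 28 libraries, and differences are log2 changes from edgeR's quasi-likelihood test over all genes, each with its standard error (SE); a gene is called at a Benjamini-Hochberg adjusted p under 0.05. Since gene lengths were not used, a level is compared only with other levels of the same gene. DFR1 with DFR2, ANS1 with ANS2, and the 3 LAR genes are related copies, and how reads shared between copies were counted is not given in the sources used here, so a value of 1 copy may hold reads of another. In whole organs, fewer cells of a type and less RNA per cell cannot be told apart. The tissue labels were not checked against named markers, because no product names could be matched to the gene identifiers.

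In watered plants of the long-term mRNA set, all 10 genes had their highest mean level in the apex. For DFR1 and ANS1 the apex and root libraries overlapped. DFR1 was at 33.8 and 13.4 CPM in apex against 7.88 and 14.5 CPM in root, and ANS1 at 174 and 22.8 CPM against 16.6 and 27.6 CPM. In the long-term mRNA controls, ANS2 was at 630 and 252 CPM in apex, 122 and 39.5 CPM in young leaves, 4.44 and 0.863 CPM in mature leaves and 21.2 and 29.8 CPM in root. ANR1 followed the same order in the shoot, with 261 and 120 CPM in apex, 65.98 and 27.5 CPM in young leaves and 12.9 and 6.38 CPM in mature leaves. All 10 genes were called higher in apex than in young leaves, where 18.8% of all genes were; this count fell to 3 with no filter on low counts, to 4 without apex control 63 or young leaf control 70, and to 3 without root control 63 or 70, which share the fit. All 10 were also called higher in apex than in mature leaves, where 28.2% of all genes were, and 9 or 10 were with any 1 library left out. The smallest of the apex to mature leaf differences was MYB134's log2 2.03 (SE 0.26) and the largest was LAR3's 9.10 (SE 1.48), the latter against a mature leaf control with 5 and 0 reads.

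Mature leaves of watered plants carried little of the branch. Between young and mature leaves 3 of the 10 genes were called higher in young leaves, where 14.5% of all genes were: DFR2 by log2 3.07 (SE 0.50), ANS2 by 4.89 (SE 0.93) and ANR1 by 2.26 (SE 0.56), with edgeR adjusted p of 0.00397, 0.0102 and 0.0254. LAR2 was the exception to the shoot gradient below the apex, at 22.0 and 15.5 CPM in young leaves and 21.8 and 18.9 CPM in mature leaves.

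Most of the genes were lower in root than in apex and higher than in mature leaves. In root mRNA controls, 8 of the 10 genes were called lower than in apex (33.4% of all genes were), DFR1 and ANS1 being the ones that were not, and 7 were called higher than in mature leaves (31.2% of all genes were), all but MYB134, LAR1 and LAR2. DFR2 was at 32.6 and 23.6 CPM in root against 12.3 and 5.79 CPM in young leaves, higher by log2 1.63 (SE 0.39, edgeR adjusted p = 0.00814), while MYB134 was lower in root than in young leaves by log2 -0.91 (SE 0.25, edgeR adjusted p = 0.0135). The other 8 genes were not called between root and young leaves, where 29.0% of all genes were called higher in root and 30.2% lower. The root against apex calls fell to 2 without root control 63 or 70; and the root against mature leaf calls fell to 3 with no filter on low counts, 4 without mature leaf control 63, 1 without mature leaf control 70, 2 without root control 63 and 1 without root control 70.

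The short-term total RNA controls gave the same order for apex and mature leaves: all 10 genes were called higher in apex, where 28.1% of all genes were, and this count was 10 with any 1 library left out. ANS1 was at 10.98 and 7.79 CPM in apex against 0.361 and 0.610 CPM in mature leaves, a log2 difference of 4.24 (SE 0.33), and LAR2 at 56.4 and 56.4 CPM against 10.4 and 10.9 CPM, a log2 difference of 2.40 (SE 0.14).

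**Figure D1:**
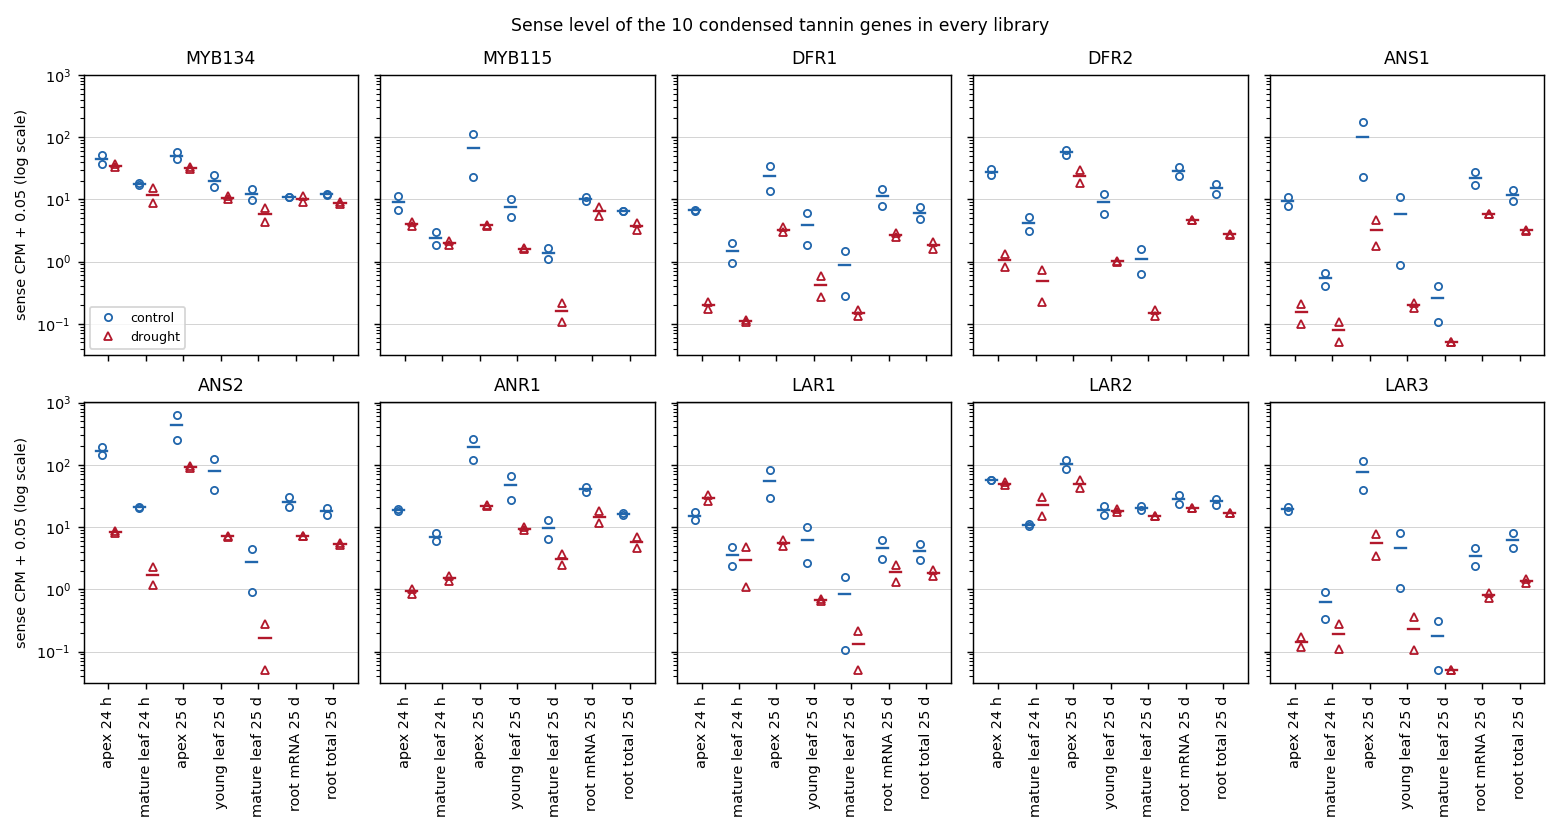
Sense level of each gene, in CPM plus 0.05 on a log scale, in every library of the 7 tissue and library type sets; circles are control and triangles drought libraries, and each bar is the mean of 2 libraries. DFR1, DFR2, ANS1, ANS2 and ANR1 lie lower in drought in every set, with LAR2 lying higher in drought in mature leaves at 24 hours.

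After 24 hours of drought, most enzyme transcripts of the branch were many-fold lower in the apex, while LAR1 was higher and LAR2 close to its control level. Of the 10 genes, 7 fell, 1 rose and 2 were not called, in a comparison where 62.3% of all genes were called, 32.3% as lower and 30.0% as higher. The median log2 change over the 10 genes was -4.44, against 0.00 over all genes tested.

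The steps up to epicatechin fell together. DFR1 went from 6.73 and 6.38 CPM in controls to 0.121 and 0.177 CPM in drought, a log2 change of -5.48 (SE 0.30). DFR2 went from 30.7 and 24.5 CPM to 0.752 and 1.28 CPM, a log2 change of -4.81 (SE 0.28). Neither gene's groups overlapped, in a comparison where 40.8% of genes of at least 1 CPM lay below control without overlap. ANS1 went from 10.98 and 7.79 CPM to 0.0485 and 0.155 CPM, a log2 change of -6.53 (SE 0.43), with 9 reads left in the drought libraries together. ANS2 went from 191 and 143 CPM to 8.56 and 7.92 CPM, a log2 change of -4.40 (SE 0.21). ANR1, the only ANR gene of the set, went from 19.6 and 17.9 CPM to 0.970 and 0.797 CPM, a log2 change of -4.47 (SE 0.20). The edgeR adjusted p of these 5 genes lay between 4.46e-05 and 8.5e-05.

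The LAR genes split. LAR3 went from 20.9 and 18.4 CPM to 0.121 and 0.0664 CPM, or from 2236 to 8 reads over the libraries of each group, a log2 change of -7.75 (SE 0.29, edgeR adjusted p = 4.02e-05). LAR1 went the other way, from 17.5 and 13.1 CPM to 26.2 and 32.8 CPM, and was called higher by log2 0.89 (SE 0.20, edgeR adjusted p = 0.00776), a call that was lost when the dispersion was shared with the mature leaf libraries (adjusted p = 0.257). LAR2 was at 56.4 and 56.4 CPM in controls and 52.6 and 47.3 CPM in drought, a log2 change of -0.23 (SE 0.13) that was not called. LAR3 had the most negative change of the 10 genes in this comparison and LAR1 was the 1 gene to rise.

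The regulators had log2 changes nearer to 0 than the 6 enzyme genes that fell. MYB115 went from 11.1 and 6.77 CPM to 4.24 and 3.65 CPM, a log2 change of -1.24 (SE 0.27, edgeR adjusted p = 0.00777), a call that was lost without control 19 (adjusted p = 0.0546) or without drought 69 (adjusted p = 0.0521). MYB134 was at 50.6 and 37.0 CPM in controls and 36.6 and 32.8 CPM in drought, a log2 change of -0.39 (SE 0.18, edgeR adjusted p = 0.104).

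Genes that mark the difference between apex and leaf moved in the same comparison. Of 1939 tested genes that were at least 3 log2 units higher in apex than in mature leaves of the long-term controls, 1506 fell and 130 rose in the droughted apex, with a median log2 change of -2.67, and of 951 tested genes with the opposite bias, 527 rose and 103 fell, with a median of 1.24. Their part in the result was not tested. In 6 of the 10 genes both droughted apex libraries lay below both watered mature leaf libraries, and in 4 both lay above. ANR1 was at 0.970 and 0.797 CPM in the droughted apex against 5.85 and 8.03 CPM in control mature leaves. LAR1 was at 26.2 and 32.8 CPM against 2.28 and 4.64 CPM. This comparison crosses tissue and treatment and was not tested. Its share of all genes is not given here, so the counts do not set these genes apart.

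In mature leaves after 24 hours the same 5 enzyme genes from DFR to ANR were the ones that fell. The test covered 9 genes, LAR3 being too low with 32 control and 9 drought reads, and 5 were called lower and 0 higher, where 9.2% of all genes were called lower and 8.73% higher. DFR1 went from 0.882 and 1.97 CPM to 0.058 and 0.065 CPM, which is 80 against 4 reads, and DFR2 from 3.01 and 5.22 CPM to 0.174 and 0.683 CPM. Their log2 changes were -4.42 (SE 0.69, edgeR adjusted p = 0.0106) and -3.24 (SE 0.63, edgeR adjusted p = 0.0217). ANS2 went from 21.3 and 20.4 CPM to 1.13 and 2.21 CPM, a log2 change of -3.61 (SE 0.34, edgeR adjusted p = 0.00253). ANS1 was called lower on 27 control and 2 drought reads (edgeR adjusted p = 0.0378), a ratio of 16.2 with a 95% counting interval of 4.06 to 140, and missed the threshold in DESeq2 (adjusted p = 0.0588). ANR1 went from 5.85 and 8.03 CPM to 1.59 and 1.301 CPM, a log2 change of -2.23 (SE 0.29, edgeR adjusted p = 0.00642).

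LAR2 and the regulators were not called by edgeR in the mature leaf, and whether they differed from these enzymes was not tested. LAR2 was at 10.4 and 10.9 CPM in controls and at 14.8 and 30.8 CPM in drought, a log2 difference of 1.13 (SE 0.36) that edgeR did not call (adjusted p = 0.0842) and DESeq2 did (adjusted p = 0.0194). MYB134 was at 18.4 and 16.8 CPM against 8.64 and 14.9 CPM in drought and MYB115 at 1.76 and 2.98 CPM against 1.77 and 2.05 CPM, and neither was called. For MYB134 both drought libraries lay below both controls, as did 33.8% of genes of at least 1 CPM, while the MYB115 groups overlapped. The 2 drought libraries differed most for LAR1, at 1.04 and 4.78 CPM, on both sides of the controls at 2.28 and 4.64 CPM. The calls in this comparison changed with single libraries, and the share of all genes called in those fits is not given here. None of the 10 genes was called when control 19 or control 49 was left out, against 6 without drought 35 and 7 without drought 69.

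Whether the apex and the mature leaf differed in their 24-hour response was tested directly, as the difference of both log2 changes in 1 fit. ANR1, LAR2 and LAR3 were called more negative in the apex, in a test that called 15.7% of all genes in that direction, and the other 7 genes were not called. The LAR2 call held in 4 of 12 alternatives and was lost with no filter on low counts (edgeR adjusted p = 0.0509). For DFR1 the difference was -1.04 (SE 0.98) and for ANS2 -0.81 (SE 0.38).

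After 25 days of drought the apex had lower levels of all 10 genes, with no overlap between drought and control, where 19.6% of genes of at least 1 CPM lay below without overlap. MYB115 was at 111 and 22.9 CPM in controls and 3.87 and 3.65 CPM in drought, a log2 difference of -4.19 (SE 0.88). ANS1 was at 174 and 22.8 CPM against 1.75 and 4.63 CPM, a log2 difference of -5.00 (SE 1.22). Both genes show how far the control libraries lay apart. ANR1 was at 261 and 120 CPM against 22.3 and 21.8 CPM, a log2 difference of -3.14 (SE 0.39). LAR1 was at 81.2 and 28.7 CPM against 4.83 and 6.22 CPM, a log2 difference of -3.35 (SE 0.58), where at 24 hours its level had been higher in drought than in control. LAR3 was at 113 and 38.9 CPM against 3.35 and 7.76 CPM, a log2 difference of -3.82 (SE 0.72). DFR1 was at 33.8 and 13.4 CPM against 2.91 and 3.51 CPM, a log2 difference of -2.91 (SE 0.50). ANS2 was at 630 and 252 CPM against 88.8 and 97.4 CPM, a log2 difference of -2.27 (SE 0.44). The smallest differences were those of MYB134, -0.68 (SE 0.17), LAR2, -1.06 (SE 0.22), and DFR2, -1.29 (SE 0.24).

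None of these 10 differences passed the adjusted threshold in edgeR, which called 0.164% of all genes in this comparison; the lowest adjusted p was ANR1's 0.0775, and all 10 had an unadjusted p under 0.05. DESeq2 called 9 of the 10, all but MYB134. No share of all genes is given here for DESeq2 or for edgeR with a library left out. The count was 5 without control 63, 7 without control 70, 1 without drought 68 and 0 without drought 64. Tissue-biased genes, here defined in the short-term controls, shifted little in this apex comparison. Of 1744 apex-biased genes tested, 21 fell and 0 rose, and their log2 median was -0.07. Of 539 with the opposite bias, 0 were called, and their log2 median was 0.26. The 10 tannin genes had a log2 median of -3.03. Few genes of any kind were called here, so the list counts alone say little. The part of these lists in the result was not tested.

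In young leaves after 25 days, 4 of 10 genes fell and 0 rose, where 6.83% of all genes were called lower and 4.62% higher, and here both regulators were among those that fell. MYB134 went from 24.2 and 15.7 CPM to 11.1 and 10.1 CPM, a log2 change of -0.92 (SE 0.22, edgeR adjusted p = 0.0360). MYB115 went from 9.94 and 5.06 CPM to 1.55 and 1.58 CPM, a log2 change of -2.27 (SE 0.36, edgeR adjusted p = 0.00905), a call that was lost with a dispersion shared over the long-term mRNA libraries (adjusted p = 0.0528). DFR1 went from 5.86 and 1.79 CPM to 0.221 and 0.527 CPM, and DFR2 from 12.3 and 5.79 CPM to 0.941 and 0.966 CPM, by log2 -3.31 (SE 0.73) and -3.25 (SE 0.42).

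The later enzymes other than LAR2 were lower in both drought libraries without a call. ANS1 was at 10.8 and 0.828 CPM in controls and 0.166 and 0.132 CPM in drought, ANS2 at 122 and 39.5 CPM against 7.25 and 6.81 CPM, and ANR1 at 65.98 and 27.5 CPM against 9.80 and 8.87 CPM; their log2 differences of -5.27 (SE 2.05), -3.53 (SE 0.70) and -2.33 (SE 0.48) were not called. LAR1, at 9.86 and 2.58 CPM against 0.609 and 0.659 CPM, and LAR3, at 8.04 and 1.01 CPM against 0.0554 and 0.307 CPM, were not called either. LAR2 was level, at 22.0 and 15.5 CPM against 19.5 and 17.1 CPM, a log2 difference of -0.04 (SE 0.20), and was the 1 gene of the 10 whose groups overlapped; 29.4% of genes of at least 1 CPM lay below control without overlap. All but LAR2 were called by DESeq2 and also by edgeR without control 70; without drought 64, DFR1 was no longer called and 3 genes remained, and without control 63 the called genes were MYB115, DFR2, ANS2, ANR1 and LAR1. The share of all genes called by DESeq2, or with a library left out, is not given here. Apex-biased genes, defined in the short-term controls, moved in young leaves, unlike in the apex after 25 days: 417 of 1176 tested fell and 7 rose, and their log2 median was -1.21. Of 913 mature-leaf-biased genes tested, 331 rose and 25 fell. The part of both lists in the result was not tested.

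In mature leaves after 25 days 5 of the 10 genes were too low to test. Of the 5 tested, MYB134, MYB115, ANS2, ANR1 and LAR2, 1 fell, MYB115, where 4.07% of all genes did. MYB115 had 31 and 18 reads in controls and 1 and 4 in drought, a log2 change of -3.39 (SE 0.59, edgeR adjusted p = 0.0355). DFR1 had 28 and 4 control reads and 2 and 2 drought reads, DFR2 had 30 and 10 against 2 and 2, and LAR1 had 30 and 1 against 0 and 4. ANS1 had 7 and 1 against 0 and 0, and LAR3 had 5 and 0 against 0 and 0, at depths where 3 reads, the upper limit that a count of 0 allows, stand for 0.170 and 0.123 CPM in the drought libraries. These 5 genes were not tested, and their low drought counts rest on control libraries of which number 63 held most of the reads.

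ANS2 had the most negative difference of the 5 tested genes in mature leaves, with 87 and 15 reads in controls and 4 and 0 in drought, at log2 -4.66 (SE 1.32, edgeR adjusted p = 0.112); it was not called, and passed the threshold with a shared dispersion (adjusted p = 0.0430) and without control 70 (adjusted p = 0.0284). ANR1 was at 12.9 and 6.38 CPM in controls and 2.44 and 3.70 CPM in drought, a log2 difference of -1.62 (SE 0.41, edgeR adjusted p = 0.0825), and MYB134 was at 14.6 and 9.84 CPM against 4.26 and 7.07 CPM, a log2 difference of -1.08 (SE 0.32, edgeR adjusted p = 0.109). LAR2 was at 21.8 and 18.9 CPM against 15.1 and 15.004 CPM, without a call (log2 -0.40, SE 0.17) and without overlap, as 30.7% of genes of at least 1 CPM were. The MYB115 call was lost without control 63, drought 64 or drought 68, when 0 genes were called, and with a shared dispersion (adjusted p = 0.0941), while 7 genes were called without control 70.

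Roots after 25 days had lower levels of the branch's enzyme transcripts whichever library type was used. In mRNA libraries 6 of the 10 genes fell and 0 rose, where 14.7% of all genes were called lower and 12.7% higher; in root total RNA 9 fell and 0 rose, where 14.3% were called lower and 12.1% higher. The median log2 change of the 10 genes was -1.70 in mRNA and -1.71 in total RNA, against -0.03 over all genes in each. DFR2 changed the most, from 32.6 and 23.6 CPM to 4.54 and 4.63 CPM in mRNA and from 17.9 and 12.2 CPM to 2.75 and 2.60 CPM in total RNA, by log2 -2.67 (SE 0.19, edgeR adjusted p = 0.00637) and -2.56 (SE 0.23, edgeR adjusted p = 0.00675).

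DFR1, ANS1, ANS2, ANR1 and LAR3 fell in both root sets. Of these, only ANS2 in mRNA, and only ANS1 and ANS2 in total RNA, kept the call with each library left out in turn. ANS1 went from 16.6 and 27.6 CPM to 5.78 and 5.68 CPM in mRNA and from 9.25 and 13.99 CPM to 3.01 and 3.19 CPM in total RNA, by log2 -2.01 (SE 0.28) and -1.99 (SE 0.25). ANR1 went from 36.9 and 44.1 CPM to 17.8 and 11.4 CPM and from 15.8 and 17.0 CPM to 6.83 and 4.50 CPM, by log2 -1.52 (SE 0.26) and -1.61 (SE 0.24). DFR1 went from 7.88 and 14.5 CPM to 2.80 and 2.42 CPM in mRNA and from 4.73 and 7.36 CPM to 1.99 and 1.56 CPM in total RNA, by log2 -2.16 (SE 0.35) and -1.84 (SE 0.30). ANS2 went from 21.2 and 29.8 CPM to 7.15 and 7.24 CPM and from 15.5 and 20.3 CPM to 5.56 and 5.18 CPM, by log2 -1.88 (SE 0.21) and -1.82 (SE 0.19). For each of these genes both drought libraries lay under both controls, as did 33.6% of genes of at least 1 CPM in mRNA and 32.2% in total RNA. LAR3 went from 2.32 and 4.49 CPM to 0.832 and 0.661 CPM and from 4.54 and 7.84 CPM to 1.40 and 1.21 CPM, by log2 -2.24 (SE 0.41) and -2.33 (SE 0.33).

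The regulators and LAR2 were called lower in root total RNA and were not called in root mRNA. With 1 total RNA library left out, MYB134 and LAR2 were called in 0 of 4 fits and MYB115 in 1, the one without drought 64. MYB134 was at 10.7 and 10.6 CPM in controls and 11.4 and 8.85 CPM in drought in mRNA, with a log2 difference of -0.13 (SE 0.18), and went from 11.9 and 12.03 CPM to 9.06 and 8.39 CPM in total RNA, a log2 change of -0.53 (SE 0.13, edgeR adjusted p = 0.0421). In total RNA MYB115 had a log2 change of -0.90 (SE 0.18) and LAR2 one of -0.71 (SE 0.15), and their differences of -0.69 and -0.54 in mRNA were not called. LAR1 was not called in either set, at log2 -1.39 (SE 0.48) and -1.25 (SE 0.35). The difference between both library types' responses was itself tested and called for 0 of the 10 genes, with 0 at an unadjusted p under 0.05; edgeR called 0% of all genes there and DESeq2 none of the 10. The mRNA count fell to 3 without control 70 or drought 68 and the total RNA count to 4 without control 70 or drought 68.

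Between the library types themselves, in watered roots, MYB115 was called lower in total RNA than in mRNA by log2 -0.62 (SE 0.11, edgeR adjusted p = 0.0159) and ANR1 by -1.29 (SE 0.12, edgeR adjusted p = 0.00282), where 19.7% of all genes were. LAR3 had a log2 difference of 0.88 (SE 0.44) that was not called. DESeq2 called 5 of the 10 genes. Both root sets carry the numbers 63 and 70, and the differences between these numbers correlated at 0.844 across the sets. With the replicate number as a block, more of the 10 genes were called than without it, so the calls depend on that choice.

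**Figure D2:**
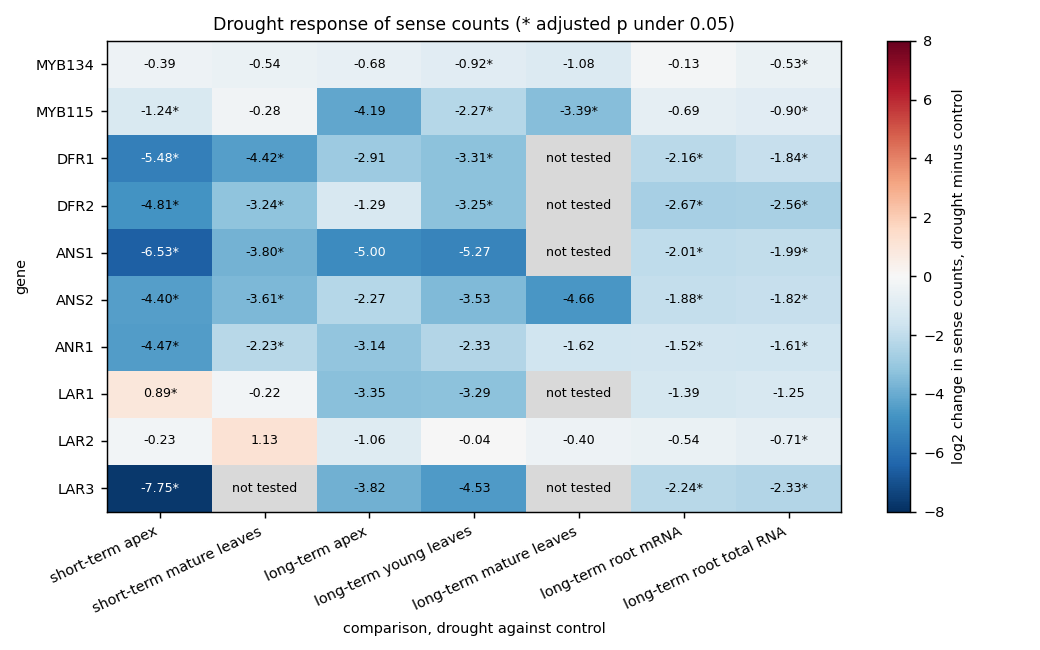
Log2 change of sense counts, drought minus control, for each gene in each of the 7 comparisons, with an asterisk at adjusted p under 0.05 in edgeR and grey where a gene was too low to test. Of 64 tested values 62 are negative, and 32 fell and 1 rose by the test; the positive ones are LAR1 in the short-term apex and LAR2 in short-term mature leaves.

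Over the 7 comparisons 64 of 70 values could be tested, and 32 fell and 1 rose. The comparisons share no library, but all long-term sets carry the same title numbers, as do both short-term sets. They cannot be taken as independent, and the share of all genes called stands with each comparison above. DFR1 and DFR2 fell in 5 of the 6 comparisons that tested them, and ANS1 in 4 of 6. ANS2 and ANR1 fell in 4 of 7 and LAR3 in 3 of 5. MYB115 fell in 4 of 7, MYB134 in 2 and LAR2 in 1 of 7, and LAR1 in 0 of 6. DFR1's log2 changes ran from -5.48 to -1.84 and MYB134's from -1.08 to -0.13.

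Long-term differences between tissues were tested as differences of log2 changes against the mature leaf, and edgeR called 0 of the 10 genes for apex, young leaf or root. The counts at an unadjusted p under 0.05 were 1, 0 and 1, where the test called 4.48%, 1.97% and 13.8% of all genes, and DESeq2 called 1, MYB115 in root minus mature leaf. With mature leaf counts near 0, the standard errors of DFR1, ANS1, LAR1 and LAR3 in these tests ran from 1.42 to 8.20. For these 4 genes the tests could therefore not tell a response from that of the mature leaf. The responses of apex, young leaf and root were not tested against each other.

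In shoot tissues the long-term control libraries stood apart from each other in the tannin genes. All 10 genes were higher in control 63 than in control 70 in apex, in young leaves and in mature leaves, with median log2 differences of 1.31, 1.36 and 0.77 against -0.03, 0.00 and -0.02 over all genes. Of genes of at least 1 CPM on average, 0.370%, 1.07% and 8.48% lay at least as far apart as these medians, in either direction. In mature leaves some members were near 0, ANS1 at 0.357 and 0.0575 CPM and LAR3 at 0.255 and 0 CPM. ANS1 was 7.65 times higher in control 63 in apex and 13.1 times higher in young leaves, and MYB115 was 4.85 times higher in apex. In roots the order turned: 2 of the 10 genes were higher in control 63 in each library type, with median log2 differences of -0.49 in mRNA and -0.34 in total RNA. There 8.75% and 16.8% of genes lay at least as far apart. The drought libraries 64 and 68 lay closer, with medians from -0.28 to 0.10 over the 5 long-term sets. Every long-term shoot result above rests on these 2 controls.

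**Figure D3:**
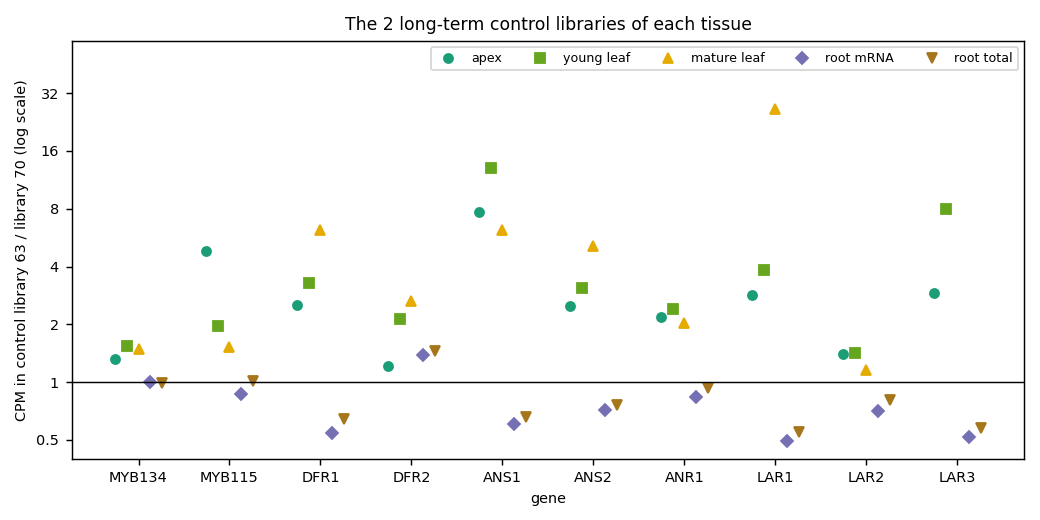
Ratio of the CPM in long-term control library 63 to that in control library 70 for each gene, on a log scale, with 1 symbol per tissue and library type; the line marks a ratio of 1, and LAR3 in mature leaves is not drawn because library 70 held no read of it. All drawn apex, young leaf and mature leaf symbols lie above 1, and most root symbols lie below it.

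The 10 genes differed in how their levels ran over the 14 groups. As a description over group means of log2(CPM + 1), which share libraries and scaling, DFR1, DFR2, ANS1, ANS2, ANR1 and LAR3 correlated with each other at Pearson r of 0.768 to 0.979 over their 15 pairs. MYB134, LAR1 and LAR2 correlated with those 6 at 0.405 to 0.820 and among themselves at 0.820 to 0.898. MYB115 correlated with the 6 at 0.797 to 0.924, its highest value among the members being the one with ANS1. DFR1 and ANS1 were each other's most similar gene out of 23762, at 0.979.

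The share of ANS1 in the reads of both ANS copies was higher in root than in shoot tissues. ANS1 held 46.0% ± 2.92 (SD, n = 2) of the reads of the ANS pair in root mRNA controls and 39.1% ± 2.38 in root total RNA controls, against 14.99% ± 9.47 in apex, 5.11% ± 4.32 in young leaves and 6.85% ± 0.846 in mature leaves of the same experiment. The shares do not compare the copies' levels, since lengths were not used, and the part of reads shared between copies was not tested. In root the share was close to its control value under drought, at 44.3% ± 0.525 in mRNA and 36.6% ± 2.14 in total RNA. In apex it was 3.24% ± 1.84 in drought after 25 days.

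Reads in introns, which can come from RNA not yet spliced, numbered 0.908 per 100 sense reads of the 10 genes over all mRNA and total RNA libraries together, against 5.02 for all genes. LAR3 held the most, 537 intron reads on 8910 sense reads, and ANS1 the fewest, 21 on 13439. In root controls LAR3 had 5.77 intron reads per 100 sense reads in mRNA and 5.96 in total RNA. ANR1 had 0.529 and 4.26 there, and MYB134 0.623 and 2.55. Whether LAR3's intron reads come from RNA not yet spliced was not tested. In the short-term apex 5 of the 10 genes could be tested on introns, where 10.8% of all genes were called lower and 58.0% higher and the median over all genes was 0.86. LAR3 fell from 100 and 43 intron reads to 3 and 5, by log2 -3.76 (SE 0.50), and ANR1 from 30 and 12 reads to 0 and 1, a ratio of 32.3 with a 95% counting interval of 5.49 to 1306. Both had also fallen in sense counts. MYB134 fell from 62 and 35 intron reads to 7 and 20, by log2 -1.52 (SE 0.43, edgeR adjusted p = 0.00111), while its sense difference of -0.39 was not called. MYB115 fell from 36 and 12 reads to 6 and 7, by log2 -1.50 (SE 0.57). LAR2 was called higher on 62 and 40 against 63 and 75 reads, by 0.75 (SE 0.31, edgeR adjusted p = 0.0258), less than the median of all genes, and turned to -0.10 when introns were scaled to their own totals. Without control 19 the called genes were MYB134 and LAR3.

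Later introns gave fewer tests. In the long-term apex MYB115 fell from 75 and 25 intron reads to 4 and 3 and LAR3 from 169 and 71 to 5 and 13, by log2 -3.48 (SE 0.62) and -3.39 (SE 0.54), both with an edgeR adjusted p of 0.0380, where 0.0894% of all genes were called lower; without control 63 the count was 1, LAR3, and DESeq2 called 0. In root total RNA MYB134, MYB115 and ANR1 fell, with log2 changes of -1.93 (SE 0.58), -3.05 (SE 0.83) and -2.22 (SE 0.40), where 9.51% of all genes did. With 1 library left out ANR1 was called in all 4 fits, MYB134 in 0 and MYB115 in 1, the one without drought 68. In root mRNA ANR1 was called lower by log2 -1.70 (SE 0.54, edgeR adjusted p = 0.0439), where 5.44% of all genes were, a call that was lost without any 1 of control 63, control 70, drought 64 and drought 68. In young and long-term mature leaves no gene of the 10 had enough intron reads to be tested, and in short-term mature leaves LAR2, the 1 gene tested, was not called, where 11.9% of all genes were.

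Antisense reads were rarer still. The 10 genes had 552 antisense reads against 216408 sense reads over the 28 libraries, or 0.255 per 100 sense reads, where all genes together had 3.38. DFR1, DFR2 and ANS1 had 2, 1 and 2 antisense reads in all, and ANS2 had 235. Only ANS2 in the short-term apex (log2 -0.72, SE 0.57) and long-term apex (0.57, SE 0.44), and LAR3 in root total RNA (-0.36, SE 0.56), could be tested, and edgeR called 0 of these 3, with 0 at an unadjusted p under 0.05 and 0 by DESeq2. The tests called 47.2%, 0.834% and 16.9% of all antisense genes in these comparisons.

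LAR3 was the 1 gene of the set with antisense reads in every total RNA library and in no mRNA library. It had antisense reads in all 12 total RNA libraries, between 3 and 15, and 0 in all 16 mRNA libraries, including the 4 from root, where the 4 total RNA libraries had 8 to 15. LAR1 had antisense reads in 9 of 12 total RNA and 4 of 16 mRNA libraries, and MYB134 in 11 of 12 and 10 of 16. In the short-term apex LAR3 had 10 and 5 antisense reads in controls and 8 and 8 in drought, while its sense reads went from 2236 to 8 and its intron reads from 143 to 8 over each group. MYB115 had 27 and 5 antisense reads in the long-term apex controls and 0 and 0 in drought, too few for the test over all 4 libraries.

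**Figure D4:**
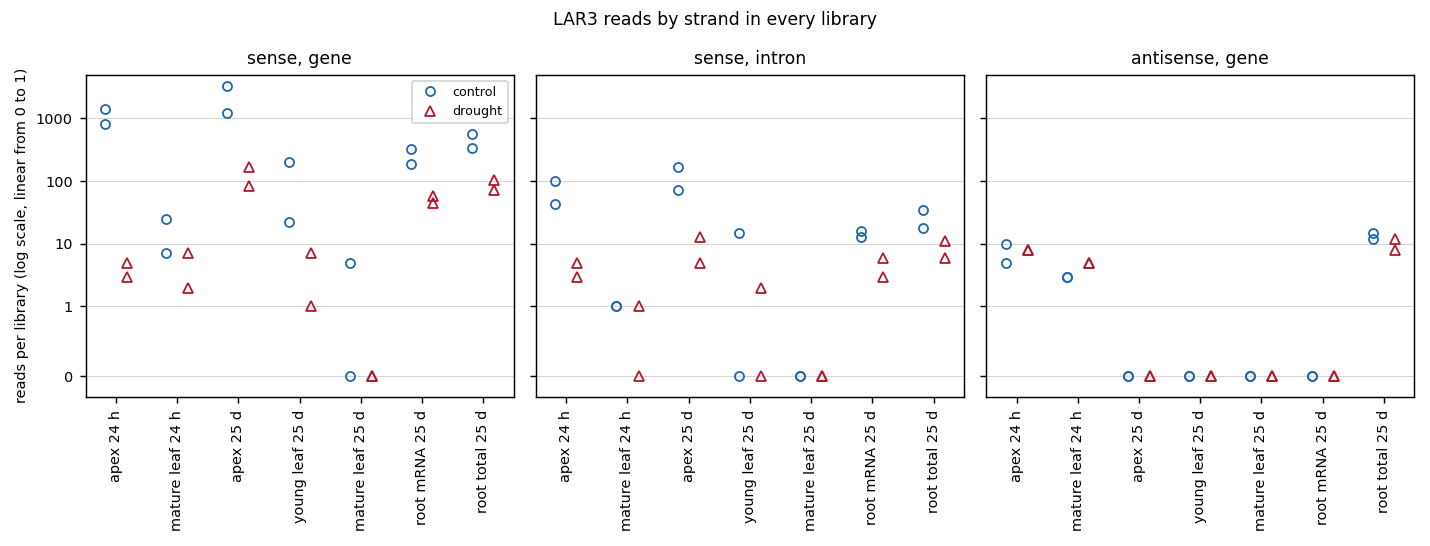
LAR3 reads in each library on the sense strand of the gene, on the sense strand of its introns and on the antisense strand of the gene, on an axis that is logarithmic above 1 and linear from 0 to 1; circles are control and triangles drought libraries. Sense and intron reads lie lower in drought in the apex and root, while antisense reads stay between 3 and 15 in total RNA libraries and at 0 in mRNA libraries.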

How the data were processed

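The 10 genes, the lists and the tests were chosen with earlier results of these data known. The deposited files hold, for each of the 28 libraries, the authors' read counts per gene and per set of introns of a gene, split by sense and antisense strand, 112 files in all, read as whole-number counts. Per the submitters' processing notes TopHat2 2.1.0, HTSeq 0.6.0 and DESeq2 were used; their settings, the genome build and the annotation are not given in the sources used here, and neither is what was merged in the root files, whose names say merged. In 44 of 56 gene files closing lines such as reads on no gene (2.43% to 12.4% of the sense reads in the 20 libraries that list them) were left out of library sizes and tests. Counting intervals cover counting error only, since reads without molecular identifiers are not independent molecules.

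Counts were tested in R 4.3.3 with edgeR 4.0.16 (robust quasi-likelihood, TMM factors, a minimum count of 10 and total of 15 in edgeR's filter, limma 3.58.1), over all genes, with Benjamini-Hochberg adjustment. Antisense and intron counts were scaled with the sense libraries' effective sizes. Each drought comparison used its 4 libraries; tissue tests used all controls of the experiment and library type (8 long-term mRNA or 4 short-term), the library type test the 4 root controls, and tests of a difference of responses all 8 short-term, 16 long-term mRNA or 8 root libraries. The rule for named genes took all 10, called or not, and beside each the genes of most similar pattern. Alternatives were DESeq2 1.42.0, no filter, median-ratio (RLE) factors, a dispersion shared within the experiment, each library left out, each strand's own totals and a replicate block. Drought and control share no replicate number, while across tissues and root library types numbers are shared. There, 12 of 20 long-term and 1 of 2 short-term pairs correlated above 0.1. The highest values were those between the root library types, 0.844 in control and 0.873 in drought. The labels do not say whether a number marks a plant. The main fits therefore left the numbers out, and the replicate block was run as an alternative. The pathway and tissue marker lists planned by product name had 0 members, because 0 of 41335 identifiers matched the 34621 genes of the RefSeq table. Lists of apex-biased and mature-leaf-biased genes came from the controls of the other experiment (at least 3 log2 units, called). On simulated data of each sense drought comparison, 90.5% to 96% of 4-fold and 18% to 29.5% of 2-fold changes were called, with 0 wrong signs. Changes were set only in genes with a mean of at least 10 reads. Every gene was simulated with the same set dispersion, which was not estimated from these libraries. These shares therefore do not hold for genes whose libraries vary more, as in the long-term shoot controls.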

Additional observations from a re-analysis of the deposited data

Results flagged for a closer look

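3 of the 10 genes were called for a different response in short-term apex and mature leaf, by the difference of their log2 changes in 1 fit. Of 27796 genes tested there, 4371 were called more negative in the apex and 3502 more positive, so calls were common in this test. ANR1 fell in both tissues, from 19.6 and 17.9 to 0.970 and 0.797 CPM in apex and from 5.85 and 8.03 to 1.59 and 1.301 CPM in mature leaves, and its change was more negative in apex by log2 -2.26 (SE 0.34, edgeR adjusted p = 0.00184), with an adjusted p of 6.84e-06 to 0.00961 over 12 alternatives. LAR3 differed by log2 -5.75 (SE 1.08, edgeR adjusted p = 0.00564; 8.86e-09 to 0.0840 over 12 alternatives, called in 11), with 32 and 9 reads in the mature leaf groups. LAR2 differed by log2 -1.38 (SE 0.43, edgeR adjusted p = 0.0429; 0.000742 to 0.155 over 12 alternatives, called in 4), being close to its control level in apex and higher in both drought libraries in mature leaves. Apex-biased genes fell in the same apex libraries, with a median log2 change of -2.67, against -0.43 in the mature leaf comparison, and their part in these differences was not tested.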

How the results depend on the processing

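The counts below are of the 10 genes called, after the count in the report. The share of all genes called under each alternative is not given. In DESeq2 the sense drought count was 9 against 0 in the long-term apex, 9 against 4 in young leaves and 3 against 1 in long-term mature leaves; the intron count was 3 against 5 in the short-term apex, 0 against 2 in the long-term apex, 0 against 1 in root mRNA and 1 against 3 in root total RNA; the count between young and mature leaves was 6 against 3, that between root library types 5 against 2, and that of the root minus mature leaf difference of responses 1 against 0. With no filter on low counts it was 2 against 1 for sense in long-term mature leaves, 1 against 0 for antisense in the long-term apex, 1 against 0 for introns in short-term mature leaves, 2 against 1 for introns in root mRNA, 3 against 10 for apex against young leaves and 3 against 7 for root against mature leaves. With a dispersion shared within the experiment it was 2 against 0 in the long-term apex and 3 against 1 in long-term mature leaves for sense, and 1 against 0 in short-term mature leaves, 1 against 2 in the long-term apex and 0 against 1 in root mRNA for introns. With introns scaled to their own totals it was 3 against 1 in root mRNA. The cause of these shifts was not tested.

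With each library left out in turn, the sense drought count after 24 hours ran from 7 to 9 for apex and from 0 to 7 for mature leaves. After 25 days it ran from 0 to 7 for apex, 3 to 9 for young leaves, 0 to 7 for mature leaves, 3 to 5 for mRNA of root and 4 to 7 for its total RNA. The antisense count ran from 0 to 1 in the short-term apex, the long-term apex and root total RNA, and the intron count from 2 to 6 in the short-term apex, 1 to 3 in the long-term apex, 0 to 1 for mRNA of root and 1 to 3 for its total RNA. Among controls it ran from 3 to 10 for apex against young leaves, 2 to 4 for young against mature leaves, 9 to 10 for apex against mature leaves, 2 to 8 for root against apex, 1 to 4 for root against young leaves, 1 to 7 for root against mature leaves and 1 to 2 between root library types. For differences of responses it ran from 2 to 5 in the short-term experiment and from 0 to 1 for root minus mature leaf. A group left with 1 library was assumed to vary like the others in the fit.

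Of the log2 values of single genes, those that changed sign were not called in the report, with 1 exception: LAR2 introns in the short-term apex, called higher at 0.75, turned to -0.10 (edgeR adjusted p = 0.772) with introns scaled to their own totals. With a library left out, the sense drought values ran from -0.64 to 0.14 for MYB115 and from -1.71 to 0.51 for LAR1 in short-term mature leaves, from -0.27 to 0.24 for LAR2 in young leaves and from -0.282 to 0.0559 for MYB134 in root mRNA. LAR3 antisense in root total RNA ran from -0.851 to 0.0714, LAR2 between young and mature leaves from -0.38 to 0.11, and MYB134 between root and mature leaves from -0.35 to 0.10. RLE factors changed the sign of 0 of 215 values. Own totals moved the median of all genes in the short-term apex from 0.86 to -0.00 for introns and from 0.63 to 0.07 for antisense reads.

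Drought and control share no replicate number, so no paired fit of a drought response was possible. Between tissues and root library types, correlations of same-numbered libraries ran from -0.0122 to 0.873. With the replicate block the count between root library types was 8 against 2, where same-numbered libraries correlated at 0.844 in control and 0.873 in drought; in the other 12 comparisons fitted with the block the count stayed within 1.5 times. Low read numbers left 5 of the 10 genes untested in long-term mature leaves.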

Other observations

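Outside the 10 genes, those whose group means of log2(CPM + 1) ran most like theirs over the 14 groups, ranked among 23762 genes of at least 1 CPM on average, the other members included, are given by identifier because the name table matched none of them. For LAR3 it was Potri.005G004900, at a Pearson r of 0.963, and for LAR2 Potri.004G072000, at 0.960. For MYB134 it was Potri.008G155700, at 0.959, and for MYB115 Potri.003G176900, at 0.926. Potri.014G019200 was the nearest gene outside the set for DFR1, at 0.962, and for ANS1, at 0.956, and the next after Potri.005G004900 for LAR3, at 0.953. DFR2 ran most like Potri.003G118200, at 0.959, ANS2 like Potri.009G084700, at 0.957, ANR1 like Potri.002G141000, at 0.932, and LAR1 like Potri.001G157600, at 0.915. These correlations describe group means that share libraries and scaling.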
